A study of Mus musculus with 24 samples.

Results

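Transcripts of 9 genes of the red cell lineage were followed through 24 libraries of sorted mouse tissue macrophages. The genes were the carbonic anhydrase gene Car1, the transcription factor genes Gata1 and Klf1, the erythropoietin receptor gene Epor, the heme synthesis gene Alas2, the alpha globin genes Hba-a1 and Hba-a2, and the beta globin genes Hbb-bs and Hbb-bt. They were picked by symbol, and all 9 were found among the 55487 genes of the count table. The libraries were bulk RNA-seq libraries, each made from 100000 sorted cells. They covered 4 cell types, namely alveolar macrophages from lung, Kupffer cells from liver, microglia from brain and splenic macrophages from spleen. Each type came from wild-type mice (WT) and from mice of the genotype Z165KO (KO here), with 3 libraries in each of the 8 groups. The labels name no treatment, age or strain, do not describe the Z165KO allele or the sorting gate, and do not say whether the 3 libraries of a group came from separate animals. The p-values therefore measure only the spread between these libraries, which may be technical.

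Red cells arise from progenitors that depend on erythropoietin, the hormone bound by the receptor that Epor encodes. GATA1 and KLF1 are DNA-binding proteins that turn on the globin, heme synthesis and red cell membrane genes as the progenitors mature. ALAS2 makes the first intermediate of heme in erythroid cells, alpha and beta globin chains hold the heme in hemoglobin, and carbonic anhydrase 1 interconverts carbon dioxide and bicarbonate in the red cell. In the mouse, the red pulp of the spleen makes red cells, and its macrophages clear old ones and can sit at the centre of erythroblastic islands, where they nurse and later engulf the nuclei of maturing erythroblasts.

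Promoter windows of these genes are shown because GATA factors bind AGATAA and TGATAA, and KLF1 binds CACCC. RefSeq promoter windows of GRCm38.p6 matched 8 of the 9 genes (all but Car1), and each was searched over its 250 upstream bases on both strands for these 3 motifs, which do not overlap one another. A GATA motif stood in 6 of the 8 windows and CACCC in 8, and the same 6 held both. The Hba-a1 and Hba-a2 windows share an identical stretch that holds the GATA motif and a CACCC, so they are not separate cases. Over 32851 promoter windows of the same length, AGATAA stood in 9.99%, TGATAA in 7.94%, either in 16.6%, CACCC in 52.0%, and a GATA motif together with CACCC in 7.11%. The 6 stretches below stop where an annotated exon starts, so a motif nearer the start site is not in the printed letters, and they read 5′ to 3′ on the strand of the gene. Capitals mark CACCC as read, and a GATA motif either as read (AGATAA or TGATAA) or in reverse complement, which is TTATCT or TTATCA. A match is a string of letters and not a measured binding site. The Gata1 window lies inside the annotated span of the gene (chrX:7959260-7978071, minus strand) and not at its outer 5′ end.
Gata1, chrX:7967911-7968160, minus strand: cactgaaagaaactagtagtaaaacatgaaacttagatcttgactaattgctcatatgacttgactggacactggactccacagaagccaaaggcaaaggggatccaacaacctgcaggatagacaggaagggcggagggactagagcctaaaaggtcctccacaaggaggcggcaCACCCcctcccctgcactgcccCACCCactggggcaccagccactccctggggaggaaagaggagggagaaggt
Klf1, chr8:84901732-84901927, plus strand: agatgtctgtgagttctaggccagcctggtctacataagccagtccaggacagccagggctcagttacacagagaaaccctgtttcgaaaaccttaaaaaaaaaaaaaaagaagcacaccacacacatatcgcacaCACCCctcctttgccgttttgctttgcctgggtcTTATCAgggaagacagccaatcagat
Epor, chr9:21963577-21963826, minus strand: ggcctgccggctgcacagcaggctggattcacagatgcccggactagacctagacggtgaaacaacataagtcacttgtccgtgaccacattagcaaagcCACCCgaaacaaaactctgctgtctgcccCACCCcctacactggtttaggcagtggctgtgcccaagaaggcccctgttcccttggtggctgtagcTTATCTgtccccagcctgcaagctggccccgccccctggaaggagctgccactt
Alas2, chrX:150547167-150547374, plus strand: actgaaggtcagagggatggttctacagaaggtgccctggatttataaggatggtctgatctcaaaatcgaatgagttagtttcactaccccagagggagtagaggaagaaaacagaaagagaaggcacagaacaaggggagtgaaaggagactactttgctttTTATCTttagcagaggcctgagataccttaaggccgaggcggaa
Hba-a2, chr11:32296242-32296488, plus strand: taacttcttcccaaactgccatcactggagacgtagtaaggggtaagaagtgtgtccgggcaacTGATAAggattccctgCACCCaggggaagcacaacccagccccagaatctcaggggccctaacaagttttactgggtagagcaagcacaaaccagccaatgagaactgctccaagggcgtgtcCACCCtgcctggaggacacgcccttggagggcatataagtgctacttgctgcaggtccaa
Hbb-bs, chr7:103828097-103828178, minus strand: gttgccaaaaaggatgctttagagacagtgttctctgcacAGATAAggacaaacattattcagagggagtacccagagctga

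Library totals lay between 50449347 and 65981787 counts. The marker lists of the labelled cell types stood highest in their own libraries. Summed over 8 markers each, the alveolar list reached 21297 to 31653 CPM (counts scaled to the library total) in alveolar libraries and at most 1396 CPM elsewhere, the Kupffer list 15959 to 21529 against at most 1781 CPM, and the microglia list 27924 to 34953 against at most 1218 CPM. The splenic list, which holds Epor as 1 of its 8 genes, reached 23260 to 27311 CPM in spleen, up to 16074 CPM in Kupffer cells and at most 1665 CPM in the other two types. No marker of a list was at 0 in its own cell type. Zeb2, which the series title names, had a mean of 256 CPM in alveolar WT and 136 CPM in alveolar KO (log2 change -0.89 ± 0.19 SE, adjusted p = 0.123 by edgeR's quasi-likelihood test), and its log2 change in the other 3 types lay between -0.035 and 0.12 with adjusted p of 0.771 or above.

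Erythroid transcripts were concentrated in the splenic libraries. In WT spleen, the 9 genes together gave 5295 to 20582 CPM, whereas the sum was 8.40 to 13.7 CPM in alveolar macrophages, 23.3 to 197 CPM in Kupffer cells and 16.9 to 205 CPM in microglia. The F test of edgeR across the 4 WT groups called all 9 genes (adjusted p from 1.735e-05 for Klf1 to 0.003919 for Gata1), beside 51.8% of the 21679 genes tested. Of the 27 contrasts of spleen with another type, 26 were called, and the exception was Gata1 against Kupffer cells (adjusted p = 0.0729). Car1 and Gata1 passed the low-count filter only through their splenic counts, so their calls are described here and are not separate support. The share of all genes called was 26.8% for spleen against alveolar macrophages, 16.3% against Kupffer cells and 34.7% against microglia. A larger number of cells of a type and more RNA per cell cannot be told apart in such bulk libraries.

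**Figure D1:**
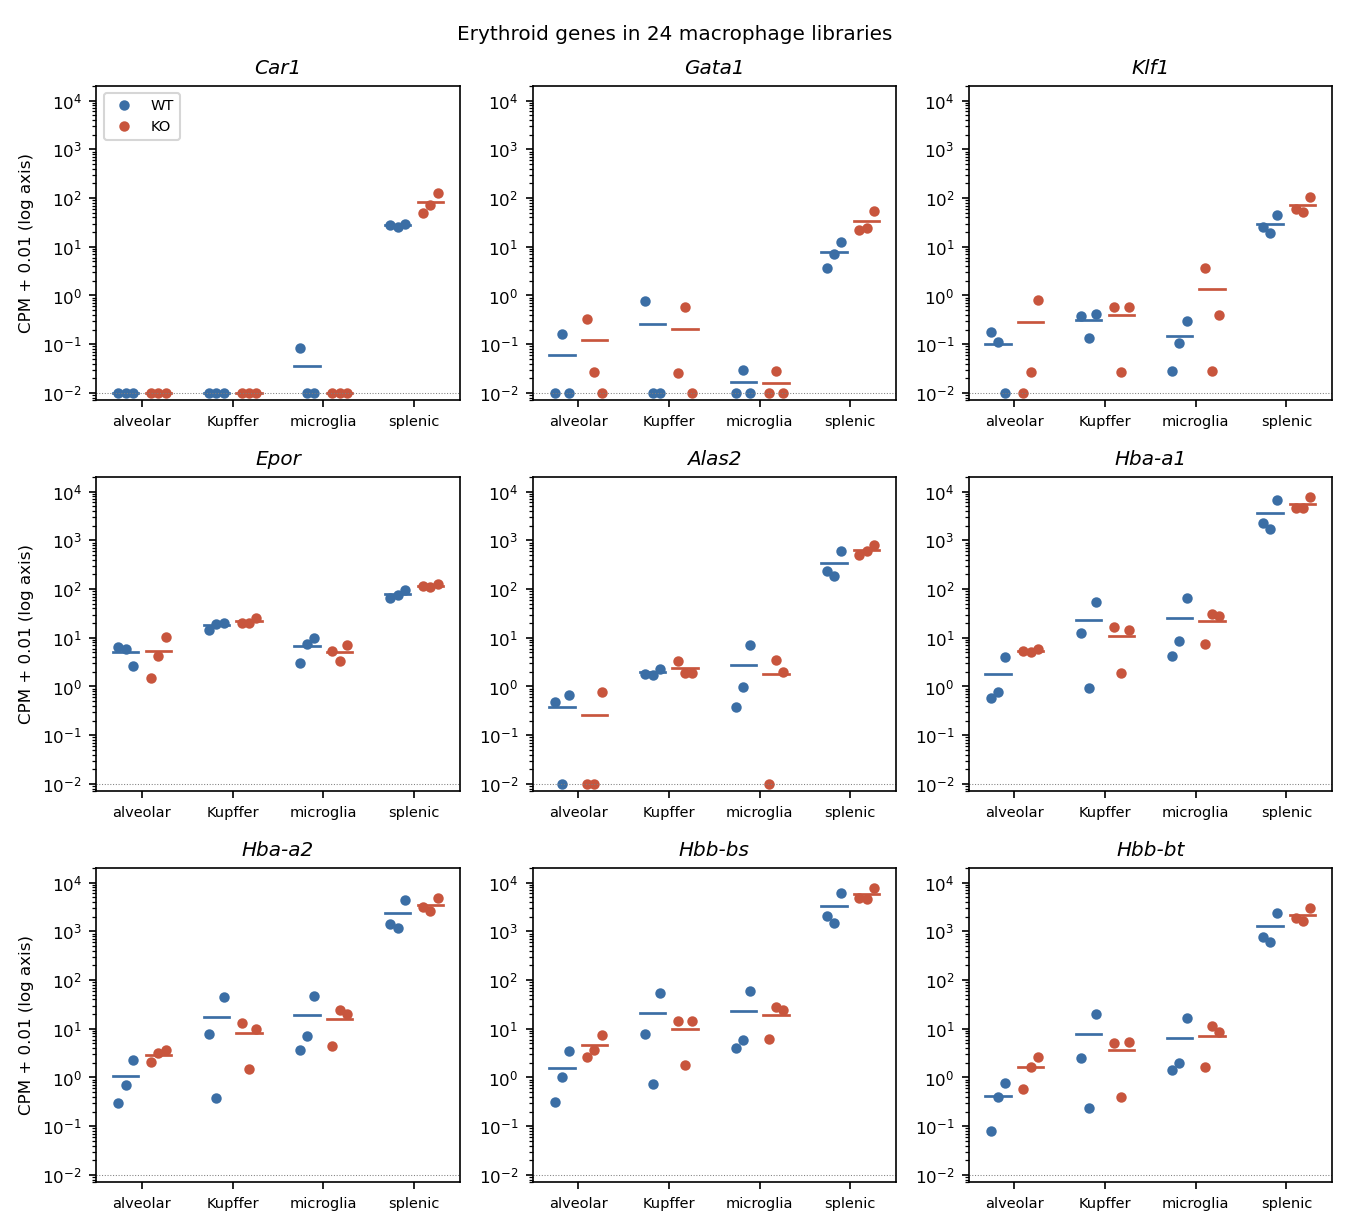
Level of each of the 9 erythroid genes in the 24 libraries, in CPM with a small constant added so that 0 can be drawn on the log axis (dotted line), by cell type and genotype; points are libraries and bars are means of 3. Splenic libraries are highest for all 9 genes, Epor and the 4 globin genes have counts in every library, and Car1 lies on the dotted line in all non-splenic libraries but 1.

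Car1 separated the tissues most sharply. It had 1545, 1381 and 1651 counts in the 3 WT splenic libraries and 2665, 3776 and 7861 in the KO ones. Outside the spleen it had 4 counts in WT microglia replicate 1 and 0 in the other 17 libraries. Against a floor of 3 counts over the group, the WT splenic mean was at least 1585-fold higher than in alveolar macrophages and at least 1662-fold higher than in Kupffer cells. Car1 lies at chr3:14766216-14808368 in mm10, next to Car3 and Car2 on the same chromosome. Car2, the broadly expressed carbonic anhydrase, did not share this sharp boundary: its WT means were 408 CPM in spleen, 12.1 CPM in Kupffer cells, 1.93 CPM in microglia and 1.86 CPM in alveolar macrophages.

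The transcription factor genes were close to absent outside the spleen as well. Gata1 (chrX:7959260-7978071) had 200, 380 and 709 counts in the WT splenic libraries. In the WT libraries of other types it had 0, 9 and 0 counts in alveolar macrophages, 44, 0 and 0 in Kupffer cells, and 0, 1 and 0 in microglia, so most non-splenic libraries held none and 1 Kupffer library held 44. Klf1 (chr8:84901928-84905291) had 1390, 1041 and 2523 counts in WT spleen, and between 0 and 25 in the 9 other WT libraries. Its WT splenic mean of 29.6 CPM was 98.6-fold that of Kupffer cells, 217-fold that of microglia and 329-fold that of alveolar macrophages. The Gata1 contrast with Kupffer cells reached an adjusted p of 0.0105 without Kupffer WT replicate 1, the library with 44 counts. Its contrast with alveolar macrophages was no longer called without alveolar WT replicate 1 (adjusted p = 0.0642), alveolar WT replicate 3 (0.0650) or splenic WT replicate 3 (0.0580).

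Epor had the smallest step of the 9 genes between spleen and the next tissue. This gene (chr9:21958897-21963506) had counts in all 24 libraries, as the 4 globin genes did, from 89 in alveolar KO replicate 1 to 7879 in splenic KO replicate 3. Its WT means were 79.7 ± 15.7 CPM in spleen, 18.01 ± 3.16 in Kupffer cells, 6.79 ± 3.47 in microglia and 5.02 ± 2.06 in alveolar macrophages (SD, n = 3). In this order, spleen stood 4.43-fold above Kupffer cells (log2 difference 2.36 ± 0.43 SE, adjusted p = 0.003444), and microglia and alveolar macrophages did not differ beyond their spread (log2 difference 0.47 ± 0.42, adjusted p = 0.402). Kupffer cells stood above alveolar macrophages (log2 difference 1.71 ± 0.42, adjusted p = 0.0113). They also stood above microglia (microglia minus Kupffer log2 difference -1.25 ± 0.42, adjusted p = 0.0415), but that call was lost on leaving out any 1 of 8 of the 12 WT libraries (alveolar replicate 2, any Kupffer replicate, microglia replicate 1 or 2, or splenic replicate 2 or 3), with adjusted p between 0.0507 and 0.107, and with the replicate number as a block (0.0514).

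Alas2 (chrX:150547375-150570638) had 12901, 10116 and 34005 counts in WT spleen. In WT Kupffer cells it had 103, 109 and 141 counts, which is a narrow range, whereas WT microglia gave 20, 50 and 358 and WT alveolar macrophages 27, 0 and 36. The WT splenic mean of 340.2 CPM was 175-fold that of Kupffer cells, 122-fold that of microglia and 906-fold that of alveolar macrophages. Among the other 3 types none of the Alas2 contrasts was called, and the nearest was microglia against alveolar macrophages (adjusted p = 0.0538).

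The globin genes were the most abundant of the 9. On the length-scaled TPM scale, which permits levels of different genes to be compared, the WT splenic means were 13812 for Hba-a1, 13258 for Hbb-bs, 11016 for Hba-a2 and 5677 for Hbb-bt, then 446 for Alas2, 128 for Epor, 70.0 for Car1, 61.0 for Klf1 and 10.01 for Gata1. Hba-a1 ranked 7, 11 and 1 among all genes by TPM in the 3 WT splenic libraries and 3, 2 and 2 in the KO ones. Hbb-bs ranked 10, 12 and 2 in WT and 2, 1 and 1 in KO. One of these 2 globin genes thus stood at rank 1 or 2 in WT replicate 3 and in all 3 KO libraries, but not in WT replicates 1 and 2.

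The 4 adult globin genes together made up 0.647%, 0.498% and 1.98% of all counts in the WT splenic libraries and 1.46%, 1.36% and 2.32% in the KO ones. WT replicate 3 stood apart from the other two WT libraries and within the KO range. Elsewhere the globin sum was 72 to 1102 counts in alveolar, 142 to 10636 in Kupffer and 714 to 9519 in microglia libraries, so a single group could span a wide range. WT libraries had 72, 172 and 562 globin counts in alveolar macrophages, 1766, 142 and 10636 in Kupffer cells and 714, 1238 and 9519 in microglia. WT replicate 3 was thus the highest WT library in all 4 cell types, while the highest KO library was replicate 3 in alveolar and splenic macrophages, replicate 1 in Kupffer cells and replicate 2 in microglia. The labels do not say whether libraries of the same number came from the same animal. All 4 globin genes were called for spleen against each other type (adjusted p from 0.001198 to 0.0152). Against Kupffer cells, Hba-a1, Hba-a2 and Hbb-bs were no longer called without Kupffer WT replicate 1 (adjusted p 0.0502, 0.0580 and 0.0625), and none of the 4 was called when no low-count filter was used (0.0504 to 0.0708). Among the 3 non-splenic types, 1 of the 12 globin contrasts was called (Hba-a2, microglia minus alveolar, log2 difference 4.23 ± 1.53 SE, adjusted p = 0.0476). With the 2 calls of Epor, that made 3 of 27 for all members, where the share over all genes was 27.7% for Kupffer cells against alveolar macrophages, 39.5% for microglia against alveolar macrophages and 32.1% for microglia against Kupffer cells. Car1 and Gata1 had 0 counts in most of these non-splenic WT libraries, and Klf1 had at most 25. Their contrasts had little or no room to be called, so 3 of 27 does not show that these tissues are alike for them.

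The copies of each globin pair are nearly identical, so the split of their reads is uncertain. In mm10, Hba-a1 lies at chr11:32283511-32284465 and Hba-a2 at chr11:32296489-32297298, and Hbb-bt lies at chr7:103812524-103813996 and Hbb-bs at chr7:103826534-103828096. In the reference transcripts, the coding sequences of Hba-a1 and Hba-a2 differed at 1 of 426 bases and those of Hbb-bs and Hbb-bt at 1 of 441, without a change of residue, and the sources used here do not say how reads that fit both copies were assigned. Hba-a1 took 60.0% to 61.0% of the alpha counts in WT and 60.4% to 63.8% in KO splenic libraries. Hbb-bs took 71.1% to 72.3% of the beta counts in WT and 72.1% to 73.8% in KO splenic libraries. In the non-splenic libraries the Hba-a1 share ranged from 52.3% to 72.0%, where the exact 95% binomial interval was as wide as 51.2% to 78.8% in the library with 50 alpha counts. The binomial intervals cover counting error only, since reads without molecular identifiers are not independent molecules. Alpha counts were 56.4% to 58.3% of globin counts in WT spleen and 53.6% to 53.9% in KO spleen. This difference was not tested, and no share over other genes stands beside it.

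**Figure D2:**
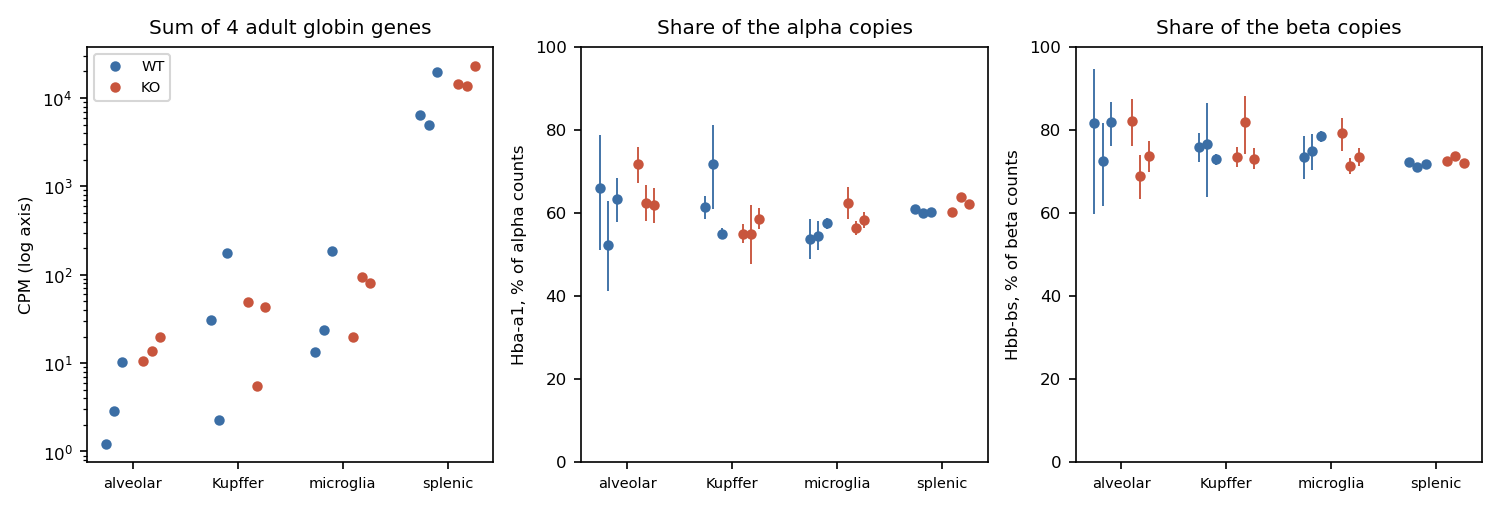
Left, summed CPM of the 4 adult globin genes per library on a log axis; middle and right, the share of Hba-a1 in alpha counts and of Hbb-bs in beta counts (percent), with exact 95% binomial intervals as bars. The globin sum differs by orders of magnitude between spleen and the other tissues, while in the splenic libraries the Hba-a1 share stays between 60.0% and 63.8% and the Hbb-bs share between 71.1% and 73.8%.

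In splenic macrophages, the KO libraries lay above the WT libraries for Car1, Gata1, Klf1 and Epor, but edgeR called none of the 9 genes after adjustment over all genes. The KO mean was 4.40 times the WT mean for Gata1, 2.99 times for Car1, 2.48 times for Klf1 and 1.46 times for Epor. For these 4 genes every KO library was above every WT library, which was so for 8.02% of the 17808 genes tested. The same 4 genes had an unadjusted p under 0.05 (11.6% of all genes, and 6.39% with KO higher), and they were the 4 members that DESeq2 called (4.91% of the 20254 genes it tested, and 2.7% with KO higher). EdgeR called 116 genes, 0.651% of those tested, of which 17 were higher (0.0955%) and 99 lower (0.556%) in KO.

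Car1 was at 27.7, 25.2 and 29.3 CPM in WT and 48.2, 73.2 and 124 CPM in KO splenic libraries. The WT values lay close together, and the KO values were spread widely above them. Its log2 change was 1.61 ± 0.31 (SE, 95% interval 0.88 to 2.34), with an adjusted p of 0.0932 by edgeR and 2.14e-05 by DESeq2. Gata1 was at 3.59, 6.94 and 12.6 CPM in WT and 22.4, 24.5 and 54.8 CPM in KO (log2 change 2.15 ± 0.53, interval 0.89 to 3.41, adjusted p = 0.180 by edgeR and 0.000477 by DESeq2). Gata1 had the largest log2 change of the 9 genes, and its highest library, KO replicate 3, was also the highest for each of the other 8.

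Klf1 was at 24.9, 19.0 and 44.8 CPM in WT and 60.6, 52.7 and 106 CPM in KO (log2 change 1.33 ± 0.38, interval 0.45 to 2.22, adjusted p = 0.238 by edgeR and 0.00835 by DESeq2). WT replicate 3 was the highest of the WT libraries and still below the lowest KO library. Epor was at 65.8, 76.7 and 96.7 CPM in WT and 114, 109 and 125 CPM in KO (log2 change 0.58 ± 0.16, interval 0.19 to 0.96, adjusted p = 0.237 by edgeR and 0.0359 by DESeq2). The shift of Epor was the smallest of the 9 in log2 terms, and its KO libraries were also the closest to one another.

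Alas2 was at 231.5, 185 and 604 CPM in WT and 510.1, 618 and 815 CPM in KO (log2 change 0.96 ± 0.44, interval -0.09 to 2.01, adjusted p = 0.479). The groups overlapped through WT replicate 3, which lay above KO replicate 1. Hba-a1 was at 2227, 1743 and 6733 CPM in WT and 4718, 4649 and 7750.2 CPM in KO, and Hbb-bs at 2039, 1478 and 6207 CPM in WT and 4906, 4645 and 7693 CPM in KO. In both, WT replicate 3 again exceeded KO replicates 1 and 2. The log2 changes were 0.70 ± 0.51 for Hba-a1, 0.60 ± 0.51 for Hba-a2, 0.85 ± 0.52 for Hbb-bs and 0.79 ± 0.53 for Hbb-bt, with adjusted p from 0.608 to 0.724, and all 4 intervals held 0 and reached at least 1.81.

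Splenic WT replicate 3 moved the late genes most. Without it, the log2 change was 1.70 for Alas2 (adjusted p = 0.0502), 1.77 for Hbb-bs (0.0697), 1.58 for Hba-a1 (0.0804), 1.48 for Hba-a2 (0.0871) and 1.70 for Hbb-bt (0.0777). Without it, the values were 1.79 for Klf1 (0.0928), 0.76 for Epor (0.0895) and 2.72 for Gata1 (0.108). No single left-out library brought any of the 9 below the adjusted threshold of 0.05 in edgeR.

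**Figure D3:**
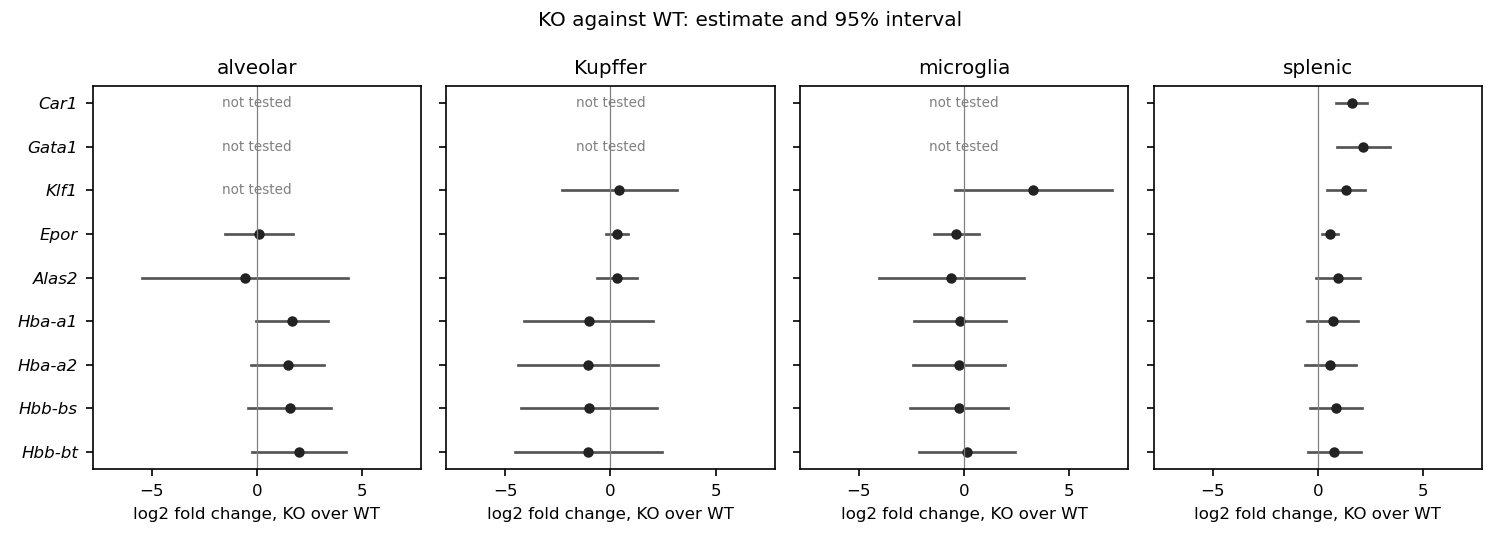
Log2 fold change of KO over WT for each erythroid gene in each cell type, with the 95% interval of edgeR's quasi-likelihood fit; genes too low for the test are marked as not tested. In spleen all 9 estimates are above 0 and the intervals of Car1, Gata1, Klf1 and Epor exclude 0 before adjustment, while in the other tissues the intervals of every tested gene include 0.

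Counts of 5 members were also set against the globin counts of the same splenic library. Gata1 had 0.555, 1.39 and 0.637 counts per 1000 globin counts in WT and 1.54, 1.80 and 2.37 in KO, and the groups did not overlap. For Klf1 the WT values were 3.85, 3.82 and 2.27 and the KO values 4.15, 3.88 and 4.60, again without overlap, although the lowest KO value exceeded the highest WT value by little. On this scaling every KO library was above every WT library for 0.96% of 17804 genes. The denominator was itself higher on average in KO (mean 1.71% of counts, against 1.04% in WT). That lowers the ratio in KO for any gene that does not rise with the globins, so this small share partly reflects the scaling. Alas2 stayed within 30.5 to 37.1 in WT and 34.98 to 45.5 in KO, and Car1 within 1.48 to 5.06 in WT and 3.31 to 5.39 in KO. For Epor they were 10.2, 15.4 and 4.89 in WT libraries against 7.84, 8.06 and 5.38 in KO libraries, so its WT range enclosed its KO range. These ratios, and the differences between genes in them, were not tested.

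**Figure D4:**
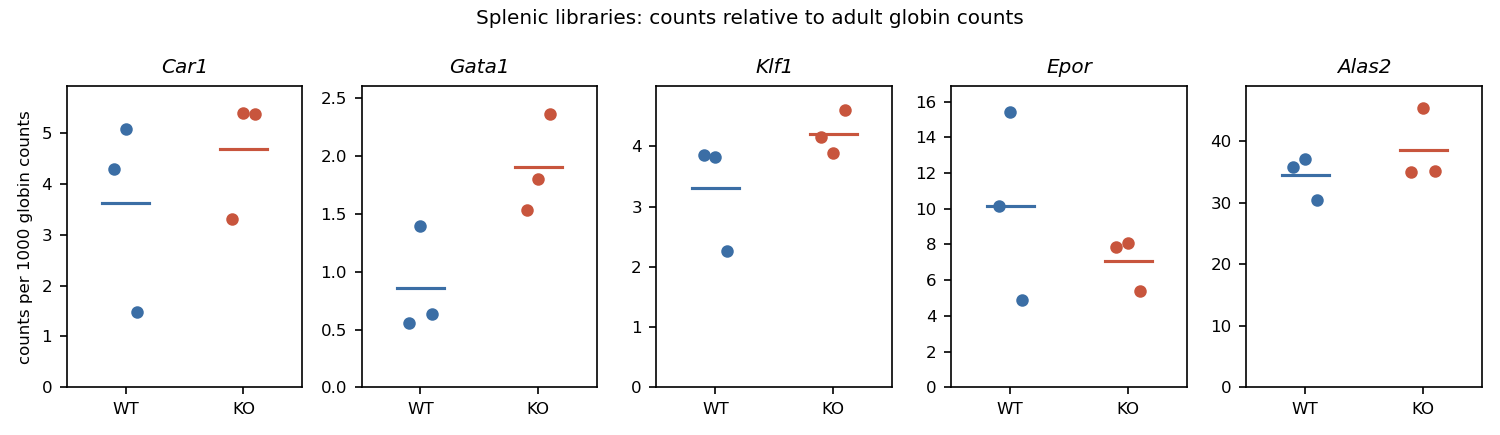
Counts of 5 erythroid genes per 1000 counts of the 4 adult globin genes in the 6 splenic libraries; points are libraries, bars are means of 3, and each panel has its own axis from 0. Gata1 and Klf1 are the genes whose KO points all lie above the WT points, and Epor is the only one whose KO mean (7.09) is below its WT mean (10.1).

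In alveolar macrophages, Kupffer cells and microglia the genotypes were not told apart by these genes. EdgeR called 0 of the 6 members tested in alveolar macrophages, 0 of 7 in Kupffer cells and 0 of 7 in microglia, none of them had an unadjusted p under 0.05, and DESeq2 called none. Over all genes the share called was 0.294% in alveolar macrophages, 0.0576% in Kupffer cells and 0% in microglia by edgeR, and 5.15%, 2.15% and 0.531% by DESeq2 in the same order. The share with an unadjusted p under 0.05 was 12.5%, 6.86% and 4.29%. Car1 and Gata1 were too low for the test in all 3 types, and Klf1 in alveolar macrophages.

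Among the alveolar libraries, Hba-a1 had 33, 46 and 213 counts in WT and 320, 314 and 332 in KO, so that every KO library was above every WT library (log2 change 1.68 ± 0.73 SE, adjusted p = 0.411). Hba-a2 had 17, 42 and 123 counts in WT and 126, 188 and 204 in KO (log2 change 1.47 ± 0.74, adjusted p = 0.492), but after scaling to the library total WT replicate 3 (2.27 CPM) lay above KO replicate 1 (2.06 CPM). Non-overlap with KO higher held for 7.61% of the 17369 genes tested there. Hbb-bs, at 18, 61 and 185 counts in WT and 158, 219 and 418 in KO, overlapped. Hbb-bt, at 4, 23 and 41 counts in WT libraries against 34, 99 and 148 in KO libraries, overlapped as well and had the largest estimate there (log2 change 2.01 ± 0.95, adjusted p = 0.455). The adult globin sum was at most 0.002% of an alveolar library, and Alas2 in the same libraries was at 27, 0 and 36 counts in WT and 0, 0 and 42 in KO.

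In Kupffer cells the globin estimates were negative and imprecise, from -1.05 to -1.02 on the log2 scale with SE of 1.29 to 1.47, and they turned positive (0.76 to 1.48) without WT replicate 3, which held 10636 globin counts. Alas2 was even between genotypes, with 103, 109 and 141 counts in WT and 221, 111 and 116 in KO (log2 change 0.30 ± 0.40). Over the 6 Kupffer libraries Alas2 ranged from 1.73 to 3.35 CPM and the adult globin sum from 2.25 to 174 CPM, so Alas2 had by far the narrower range. Epor was at 14.4, 19.2 and 20.4 CPM in WT and 20.5, 19.9 and 25.4 CPM in KO Kupffer cells (log2 change 0.31 ± 0.22, adjusted p = 0.871).

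In microglia, Klf1 had 1, 5 and 15 counts in WT and 201, 1 and 20 in KO, so its log2 change of 3.29 ± 1.62 (adjusted p = 0.992) rested on KO replicate 1. That library had 0 counts of Car1, Gata1 and Alas2 and 1089 of the adult globins. Without it the log2 change of Klf1 was 0.62. The globin estimates in microglia lay between -0.26 and 0.14, and without WT replicate 3, the library with 9519 globin counts, between 1.59 and 2.11, with no adjusted p under 0.621.

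The genotype effect was not shown to differ between tissues for any of the 9 genes. The interaction test over all 24 libraries gave adjusted p from 0.552 for Car1 to 0.911 for Alas2 and called 0 members, beside 0.512% of 24030 genes. Both for Car1 and for Gata1 this test compares spleen with groups at or near 0 counts, where the estimate is very imprecise.

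Other genes of the erythroid programme had positive estimates in the splenic KO libraries without passing the test. Of 12 other erythroid transcription factor genes, 11 had a positive log2 change and edgeR called none, while 3 had an unadjusted p under 0.05 and DESeq2 called 3. The median log2 change was 0.96, against -0.0029 over all genes tested. Over all genes tested in spleen, 11.6% had an unadjusted p under 0.05 (6.39% with KO higher). EdgeR called 0.651% of them, and DESeq2 called 4.91% of those it tested (2.7% with KO higher). Lmo2, a bridging partner in GATA1 complexes, was at 43.8 CPM in WT and 59.6 CPM in KO (log2 change 0.49 ± 0.21, adjusted p = 0.436). Ldb1, its looping partner, was at 64.1 and 67.4 CPM (0.12 ± 0.11, adjusted p = 0.760), and Zfpm1, which encodes the GATA1 cofactor FOG1, at 28.3 and 73.9 CPM (1.41 ± 0.38, adjusted p = 0.212). Gfi1b, which encodes a transcriptional repressor that acts within the erythroid and megakaryocyte lineages, was chosen here after its value was seen. It had the lowest adjusted p of the list, 0.0670 by edgeR, with 7.37 CPM in WT and 27.8 CPM in KO.

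Of the 11 heme synthesis genes tested besides Alas2, 10 had a positive log2 change (median 0.82), edgeR called none, 7 had an unadjusted p under 0.05 and DESeq2 called 5. Over all genes in spleen, 11.6% had such a p and DESeq2 called 4.91%. Fech, which encodes the enzyme that inserts iron, was at 232 CPM in WT and 399 CPM in KO (log2 change 0.82 ± 0.37, adjusted p = 0.473). Alas1, the housekeeping counterpart of Alas2, was the 1 gene with a negative estimate, at 72.0 CPM in WT and 63.6 CPM in KO (-0.14 ± 0.16, adjusted p = 0.802).

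All 16 tested genes of the red cell membrane and skeleton had a positive log2 change (median 1.28). None was called by edgeR, 15 had an unadjusted p under 0.05 (11.6% of all genes in spleen) and DESeq2 called 6 (4.91% of all genes). Slc4a1, the anion exchanger band 3, was at 616 ± 455 CPM in WT and 1462 ± 587 CPM in KO (SD, n = 3; log2 change 1.27 ± 0.54 SE, adjusted p = 0.426). Sptb, the erythroid beta spectrin gene, was at 110 and 261 CPM (1.27 ± 0.52, adjusted p = 0.410). Among 15 late erythroid genes, which include Fech again, all 15 estimates were positive (median 0.82), edgeR called none, 3 had an unadjusted p under 0.05 and DESeq2 called 2. Bnip3l, needed for clearing mitochondria from reticulocytes, was at 108 and 114 CPM (0.12 ± 0.20), and Xpo7, an exportin of late erythroblasts, at 194 and 303 CPM (0.68 ± 0.33).

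Among 9 tested genes of erythropoietin signalling, 6 estimates were positive (median 0.23) and edgeR called none, with 4 at an unadjusted p under 0.05 (11.6% of all genes in spleen) and 1 called by DESeq2 (4.91% of all genes). Jak2, the kinase bound to the receptor, was at 113 and 103 CPM (log2 change -0.092 ± 0.13), Stat5b at 147 and 138 CPM (-0.043 ± 0.10), and the survival gene Bcl2l1 at 54.8 and 86.9 CPM (0.70 ± 0.24, adjusted p = 0.327). Car2 was at 408 and 922 CPM (1.21 ± 0.39, adjusted p = 0.298), and edgeR called none of the 6 carbonic anhydrase genes tested besides Car1 (1 at an unadjusted p under 0.05, 1 by DESeq2). Of the other globin genes, the theta globin gene Hbq1b was at 4.79 and 10.02 CPM and Hbq1a at 0.881 and 0.98 CPM, with adjusted p of 0.550 and 0.959. The embryonic genes were close to silent: over 3 splenic libraries Hbb-bh1 had 1 count in WT and 17 in KO, and Hbb-y 3 and 10.

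**Figure D5:**
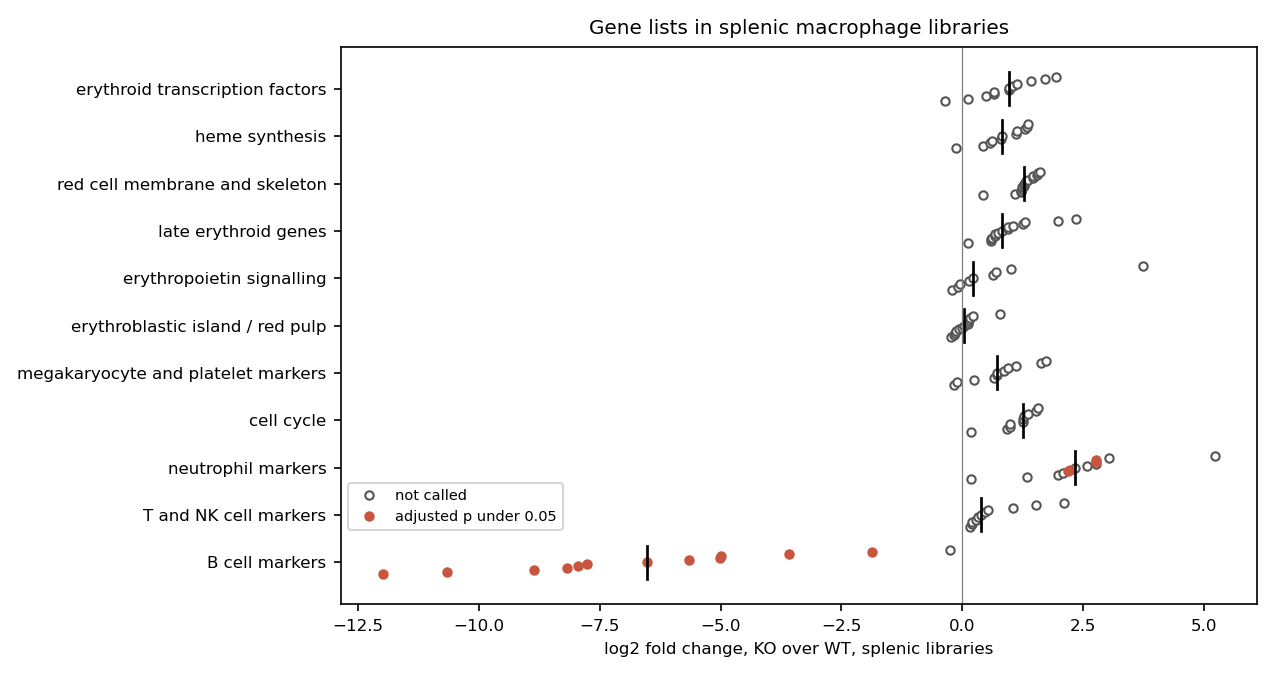
Log2 fold change of KO over WT in splenic libraries for each tested gene of 11 lists; vertical bars are list medians and filled points are genes with an adjusted p under 0.05 in edgeR. The 4 erythroid lists at the top have medians from 0.82 to 1.28 with no filled point, the list of island and red pulp macrophage genes is centred at 0.029, and filled points are found in the neutrophil list (4) and the B cell list (12). Fech is in both the heme synthesis and the late erythroid list, which have the same median of 0.82.

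Genes of macrophages and of other cell types were counted in the same splenic libraries. Over all genes tested there, 11.6% had an unadjusted p under 0.05 (6.39% with KO higher). EdgeR called 0.651% of them, and DESeq2 called 4.91% of those it tested (2.7% with KO higher). The 13 genes of erythroblastic island and red pulp macrophages had a median log2 change of 0.029, with none called by edgeR or DESeq2 and none at an unadjusted p under 0.05 (Vcam1 10305 and 11130.2 CPM, Hmox1 4881 and 5161 CPM), and their sum was 29117 to 34309 CPM in WT and 31418 to 32339 CPM in KO. Of 13 B cell markers, 12 fell (12 at an unadjusted p under 0.05, and 12 by DESeq2), and their sum was 1651 to 2222 CPM in WT and 305 to 391 CPM in KO. The number of B cell markers called was 4 without WT replicate 2, 6 without WT replicate 1 or KO replicate 2 and 7 without KO replicate 1. Of 13 neutrophil markers, 4 rose (Ngp, Ltf, S100a9 and S100a8), all 13 estimates were positive, 10 had an unadjusted p under 0.05 and DESeq2 called 9. Their sum was 178 to 249 CPM in WT and 631 to 853 CPM in KO. None of the 13 was called without WT replicate 1, KO replicate 2 or KO replicate 3, and 1 without WT replicate 2 or KO replicate 1. All 10 cell cycle genes had a positive estimate (median 1.25) with none called by edgeR, 8 at an unadjusted p under 0.05 and 7 called by DESeq2, and Mki67 was at 69.8 and 196 CPM. Of 11 megakaryocyte and platelet markers, which share GATA1 targets with red cells, 9 estimates were positive (median 0.72), with none called by edgeR and 2 by DESeq2, and 2 at an unadjusted p under 0.05. The summed level of that list did not rise, at 173 to 218 CPM in WT and 173 to 210 CPM in KO. EdgeR called none of 7 mast cell and basophil, 11 T and NK cell or 8 endothelial markers (1, 2 and 3 at an unadjusted p under 0.05, and 1, 1 and 2 by DESeq2), and of 5 eosinophil markers Il5ra fell, to 0 counts in KO. Whether any of these shifts has a part in the erythroid values was not tested.

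The sum over the red cell membrane and skeleton list in splenic libraries was 977 to 2834 CPM in WT and 2482 to 4984 CPM in KO, so its ranges overlapped, as those of the globins did. Outside the spleen the list was not silent: its sum in WT libraries was 98.5 to 119 CPM in alveolar macrophages, 73.6 to 129 CPM in microglia and 1430 to 1997 CPM in Kupffer cells. Its members were uneven there. Epb42 and Kel, picked after their values were seen, had at most 14 counts and 0 counts over the 3 libraries of any non-splenic group.

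Genes with the most similar profiles over the 24 libraries were mostly red cell genes. By Pearson's r of log2 CPM (16771 genes searched), the closest to Car1 were Rhag and Kel (both 0.997) and Cldn13 (0.996), and to Klf1 were Rhd, Rhag and Apol11b (all 0.970). For Gata1 they were Apol11b (0.981), Mogat1 and Gm47985 (both 0.979), for Alas2 they included Hbb-bt (0.969) and Trim10 (0.968), and for Epor they were Mrap (0.955), Car2 (0.953) and Samd4 (0.951). The nearest 3 genes of each globin gene were the other 3 globin genes (0.995 to 0.999). These points share tissue and library, so such values mostly describe the step between spleen and the other tissues.

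Within groups the r values of the members were lower. After subtraction of the group means, the summed globin level had r of 0.63 with Alas2, 0.18 with Epor, 0.16 with Klf1, 0.059 with Car1 and -0.010 with Gata1 over the 24 libraries, and the non-globin gene with the highest value was Akr1c19 (0.850). These deviations mix libraries with as few as 72 and as many as 1463895 globin counts, and they carry no test. Car1, Gata1 and Klf1 had few or no counts in most non-splenic libraries, so these r values cannot show whether they follow the globins. In spleen, Klf1 ordered the libraries as the globin sum did in both genotypes. Car1 and Alas2 did so in WT only, Epor in KO only and Gata1 in neither.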

How the data were processed

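The authors deposited gene counts, CPM and TPM for all 24 libraries; the submitters' processing notes name the build mm10 and the tools DRAGEN, STAR, Subread, featureCounts and Salmon, with no role given to each. The deposited counts are whole numbers and not normalized, and the sources used here do not say whether strand was kept. The largest gap between the deposited CPM and a recomputation from counts was 4.7e-11, and CPM here are over the library total. The deposited TPM were used to compare levels between genes and in no test. In 4 splenic columns the authors' TPM act as a score on the same scale, because repeated rows take the column sum above the TPM total. Of 55774 rows, 287 repeated an earlier gene and were dropped, and 0 value columns were unused. Replicates of a group were not duplicates of one another (smallest chi-square per degree of freedom 29.4).

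Each cell type was fitted on its own 6 libraries with edgeR 4.0.16 in R 4.3.3 (TMM, filterByExpr with a minimum count of 10, robust two-sided quasi-likelihood test), and calls took p-values adjusted over all genes tested (Benjamini-Hochberg), with 0.05 as the limit. The WT contrasts used the 12 WT libraries and the interaction test all 24. DESeq2 1.42.0 was the second tool. The fits were tested on data simulated with the same spread between replicates for every gene. That setting does not mirror genes as variable as the globins in WT spleen. The members, gene lists and tests were chosen with earlier results of these data known. From each list up to 4 genes were named, called ones first by absolute log2 change and then by mean CPM over all libraries; genes of similar profile were the 3 with the highest Pearson's r of log2(CPM + 0.5) among genes with at least 1 CPM in 3 libraries. The filter, block and leave-one-out alternatives are given in the closing section. The TMM and library size alternatives enter there only in statements about all alternatives run, without values of their own. Gene coordinates and coding sequences came from GENCODE annotation of mm10, and promoter windows from RefSeq. Hbb-b1, Hbb-b2, Ahsp and Hemgen were listed but not analysed here, and single values of 3 further genes are not reported here.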

Additional observations from a re-analysis of the deposited data

How the results depend on the processing

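No member was called in edgeR under any alternative run for the genotype comparisons, and DESeq2 called 4 members in spleen. The number of genes called overall depended on the tool. DESeq2 called 1034 genes in alveolar macrophages, 475 in Kupffer cells, 106 in microglia and 995 in spleen, edgeR without the low-count filter 146, 66, 11 and 267, and the contrast within the fit of all 24 libraries 297, 44, 20 and 142. Leaving out 1 library gave 0 to 30 called genes in alveolar macrophages, 0 to 6 in Kupffer cells, 0 in microglia and 12 to 71 in spleen, and 74 to 150 for the interaction. Member contrasts called among the 3 non-splenic WT types ranged from 1 to 8 on leaving out 1 library. Without robust estimation, chosen after seeing the data, edgeR called 55 genes in alveolar macrophages and 133 in spleen.

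The replicate number as a block left 0 called genes in alveolar macrophages and Kupffer cells and 10 in spleen. Same-numbered WT and KO libraries of a cell type did not deviate together (r of -0.07 to 0.075). Same-numbered WT libraries of different tissues had r of -0.039 to 0.121 over 18 pairs, 1 of them above 0.1. Differently numbered WT libraries had r of -0.102 to 0.083. The medians for same and other numbers were 0.008 and -0.007 in WT, and 0.016 and -0.005 in KO. The numbers were not taken to pair samples, but whether tissues share animals cannot be told from these values. In the WT comparison the block, chosen after seeing the data, raised the member contrasts called among the 3 non-splenic types from 3 to 10. Under the block the log2 change turned to -0.25 for Epor in alveolar macrophages, -0.24 for Klf1, 0.20 for Hba-a2 and 0.082 for Hbb-bs in Kupffer cells, and 0.50 for Hba-a1, 0.25 for Hba-a2 and 0.53 for Hbb-bs in microglia.

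On leaving out 1 library the sign was not fixed for Epor (-0.81 to 0.53) and Alas2 (-7.42 to 0.13) in alveolar macrophages. The same held in Kupffer cells for Alas2 (-0.037 to 0.48), Hba-a1 (-1.59 to 0.76), Hba-a2 (-1.62 to 1.08), Hbb-bs (-1.59 to 1.31) and Hbb-bt (-1.62 to 1.48). In microglia it held for Epor (-0.72 to 0.017), Alas2 (-1.47 to 1.47), Hba-a1 (-0.71 to 1.79), Hba-a2 (-0.75 to 1.59), Hbb-bs (-0.74 to 2.01) and Hbb-bt (-0.34 to 2.11). The cause was not tested. All 9 estimates in spleen, the 4 globin genes in alveolar macrophages (1.02 to 3.04), Epor in Kupffer cells and Klf1 in microglia kept their sign under every alternative run. At this depth Car1 and Gata1 did not pass the low-count filter in any non-splenic type, nor Klf1 in alveolar macrophages, so a genotype difference was not testable there.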

Other observations

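In Kupffer cells, Aqp1, a water channel gene of red cells and endothelium, took most of the red cell membrane list, whose sum was 1430 to 1997 CPM in WT and 473 to 1191 CPM in KO. Aqp1 itself was at 1315 to 1860.5 CPM in WT and 341 to 1049 CPM in KO (adjusted p = 0.665, edgeR), and the endothelial list summed to 4804 to 5928 CPM in WT and 1979 to 4972 CPM in KO. Slc4a1 in the same libraries had at most 1.20 CPM.

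In alveolar macrophages, Gfi1b had 37 counts over the 3 WT libraries and 432 over the 3 KO libraries, with KO values from 0 to 4.80 CPM (adjusted p = 0.534, edgeR). Both genes were chosen after their values were seen.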
